A study of Sus scrofa with 8 samples.

Results

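Scaffold genes of the sarcomere's thick filament and M-band were compared between left ventricles of 4 mutant pigs and 4 wild-type (WT) pigs. The list of 6 genes was chosen by function, with earlier results of these data known: TTN, MYOM1, MYOM2, MYBPC3, NEB and RBM20. The thin filament gene NEB and the splicing factor gene RBM20 are counted with the scaffold genes below. Of these, 5 were found by symbol among 14718 genes and are described here, while titin itself (TTN) was not analysed here. In the mutant group, replicates 1 to 3 (pigs 6, 7 and 8) carried the genotype label KCNH2 mutation and replicate 4 (pig 9) the label KCNH3 mutation, although the series design speaks of KCNH2 alone. WT replicates 1 to 4 were pigs 1, 2, 4 and 5, labelled wt. The sources used here give no allele, age, sex, litter or drug treatment. KCNH2 encodes the pore of a potassium channel that repolarizes ventricular myocytes, and its normalized counts were 798 to 1839 in mutant ventricles and 148 to 1909 in WT ventricles. Polyadenylated RNA was sequenced, and the deposited unit is the normalized count, which is reads per gene scaled by a size factor for the library.

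The thick filament is a bundle of myosin molecules, and titin spans from the Z-disc to the M-band in the middle of the sarcomere, where it holds that bundle in place. Myomesins cross-link neighbouring thick filaments and titin at the M-band, and cardiac myosin-binding protein C (MYBPC3) forms stripes along the thick filament and tunes the myosin heads. RBM20 is a splicing factor that removes spring exons from titin transcripts. Nebulin (NEB) spans the thin filament of skeletal muscle, and in heart muscle the smaller nebulette (NEBL) is the usual family member. A count per gene does not separate splice forms, so titin springs and the embryonic heart form of myomesin 1 could not be told from other forms.

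Libraries held 15860157 to 22368369 reads. The share of reads from 13 mitochondrially encoded genes was 15.9% to 27.5% in mutant libraries and 31.7% to 87.9% in WT libraries, without overlap. WT replicate 3 had the highest share and 10724 genes with a read, against 12881 or more in the other libraries, and WT replicate 4 followed at 65.2%. A single read of WT replicate 3 came to 4.84 normalized counts, against 0.611 to 1.21 in the other libraries. The summed level of 9 cardiomyocyte markers was 744997 to 795676 normalized counts in mutant ventricles and 472984 to 693795 in WT ventricles. Of the 9 markers 7 were higher and 2 lower in mutant ventricles, and without MYH7, a choice made after the values were seen, the sums were 439752 to 562184 in mutant ventricles and 339264 to 598363 in WT ventricles, with overlap. In bulk tissue, fewer cells of a type and less RNA per cell cannot be told apart. The part of these measures in the differences below was not tested.

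MYOM1, which encodes myomesin 1, was the member whose groups separated. Its normalized counts were 10804, 9969, 9909 and 10396 in mutant replicates 1 to 4, against 5164, 6828, 3280 and 3976 in WT replicates 1 to 4. All mutant libraries lay above all WT libraries, and the mutant values lay within 1.09-fold of each other. The means were 10270 ± 417 in mutant ventricles and 4812 ± 1553 in WT ventricles (SD, n = 4 each). The log2 difference was 1.15 ± 0.27 (SE), with a 95% interval of 0.54 to 1.76. Limma, fitted to all 11660 genes kept, gave a Benjamini-Hochberg adjusted p of 0.202, so MYOM1 was not called, and an unadjusted p of 0.00192. An exact two-sided permutation test gave p = 0.0286, the smallest that the 70 assignments of 8 libraries allow.

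None of the 5 members passed limma at an adjusted p under 0.05, as for the whole table, where 0% of 11660 genes were called (1616 at an unadjusted p under 0.05). At that unadjusted threshold stood 1 member, MYOM1, against 13.9% of kept genes. MYOM1 was the 1 member of 5 with every mutant value above every WT value, which 6.17% of all kept genes showed. The authors' deposited table gives MYOM1 a log2 fold change of 1.09 (adjusted p = 0.00760) and calls it higher, as it does 1.32% of its 12763 genes with an adjusted p. Of the 4 members with an adjusted p it calls none lower, against 3.23% of those genes. DESeq2 on the recovered reads called MYOM1 at adjusted p = 0.00762. This repeats the method that the submitters name on their own counts, so it is not independent of their call. The refit called 1 of 5 members, of which NEB had no adjusted p, against 4.56% of the genes with one. With edgeR on the same reads MYOM1 had an adjusted p of 0.194 and was not called. The DESeq2 adjusted p of MYOM1 was 0.0660 without mutant replicate 3 and 0.0911 without mutant replicate 4. It was 5.6e-05 to 0.0406 with any other library left out. The limma adjusted p of MYOM1 was 0.138 to 0.610 with 1 library left out. In limma the difference without WT replicates 3 and 4 was 0.79. Scaled to 1000000 reads of nuclear genes, MYOM1 had 1053 ± 36.1 reads in mutant libraries and 473 ± 175 in WT libraries (SD, n = 4 each), again without overlap.

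**Figure D1:**
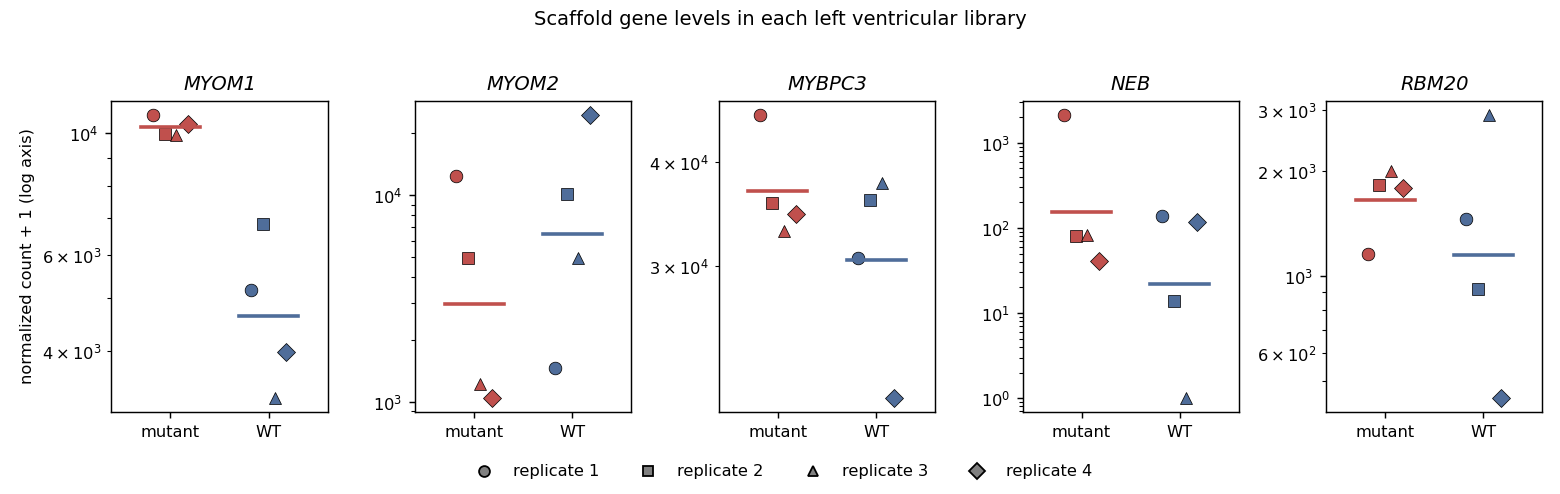
Normalized count plus 1 (log axis, which differs between panels) of the 5 scaffold genes in each library, mutant left of WT. Symbols give the replicate, which pairs no animals, and bars the mean of the log2 values. MYOM1 values sit between 9909 and 10804 in mutant libraries, above every WT library, while the groups of the other 4 genes overlap.

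MYOM2 encodes the M-protein, a second myomesin of the M-band. Its normalized counts were 12423, 4965, 1221 and 1038 in mutant replicates 1 to 4, against 1447, 10152, 4990 and 24528 in WT replicates 1 to 4. In the pig annotation (Sscrofa11.1) MYOM2 overlaps a long noncoding RNA gene, and without a stated strand setting their reads cannot be told apart. High and low libraries occurred in both groups, and the groups overlapped, although WT replicate 4 lay above every mutant library. The highest value was 11.97 times the lowest among mutant libraries and 16.95 times the lowest among WT libraries. The log2 difference was -1.13 ± 0.98 (SE), with a 95% interval of -3.32 to 1.06 (limma adjusted p = 0.592; exact permutation p = 0.371). It was -0.49 without WT replicate 4, -0.62 without mutant replicate 4 -1.82 without mutant replicate 1 and -1.85 without WT replicate 1. The value without mutant replicate 3 was -0.70.

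MYOM1 and MYOM2 thus differed in how much they varied between animals of the same group. The SD of log2 values among mutant libraries was 0.06 for MYOM1, smaller than for all but 1.26% of the kept genes, and 1.71 for MYOM2, larger than for 98.8% of them. Among WT libraries the SDs were 0.46 for MYOM1 and 1.72 for MYOM2. The median SD over kept genes was 0.33 among mutant libraries and 0.70 among WT libraries. A read ratio between both genes does not depend on the size factor of a library. The MYOM1/MYOM2 ratio was 0.870, 2.01, 8.11 and 10.005 in mutant replicates 1 to 4, against 3.57, 0.673, 0.657 and 0.162 in WT replicates 1 to 4. The ratio therefore overlapped between groups, and the log2 difference was 2.28 (p = 0.143 by exact permutation, two-sided, and 0.238 after Benjamini-Hochberg adjustment over 5 ratios). Since the ratio is of reads and not per length, only its change between libraries can be read.

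The genes whose profile over the 8 libraries was closest to that of MYOM2 were KCNT2, a sodium-activated potassium channel gene, N4BP2L1, and FBXO32, which encodes the muscle ubiquitin ligase atrogin-1. Closeness was the root mean square distance of log2 values, each gene centred on its own mean, among 8894 other genes with a mean of at least 100. The distances were 0.39, 0.49 and 0.55. FBXO32 had 2239, 1836, 369 and 417 normalized counts in mutant replicates 1 to 4, against 821, 2094, 1080 and 4901 in WT replicates 1 to 4. For MYOM1 the closest genes were PPP1R3D, a glycogen-targeting phosphatase subunit gene, DAG1, which encodes dystroglycan, and MTOR, a growth-controlling kinase gene, at 0.16, 0.16 and 0.17.

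Mutant replicate 1 and WT replicate 4, the libraries with the highest MYOM2 levels, also stood apart from the rest in TNNI1, S100A1 and MYH6, which were picked after their values were seen. TNNI1, the troponin I gene of the fetal and newborn heart, had 1.22, 10801, 10533 and 9489 normalized counts in mutant replicates 1 to 4, against 7176, 14821, 11472 and 31.5 in WT replicates 1 to 4. The value in mutant replicate 1 rests on 2 reads and that in WT replicate 4 on 26 reads. S100A1, a calcium-binding protein gene of adult myocytes, showed the opposite picture, with 5218, 82.0, 85.1 and 73.5 in mutant replicates 1 to 4, against 179, 70.8, 145 and 4921 in WT replicates 1 to 4. The α-myosin heavy chain gene MYH6 was lowest in the same libraries, at 7084 in mutant replicate 1 and 2001 in WT replicate 4, against 123227 to 208471 in the other mutant libraries and 37865 to 59380 in the other WT libraries. MYOM2 did not follow TNNI1 throughout, since WT replicate 2 had 10152 normalized counts of MYOM2 and the highest TNNI1 level.

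**Figure D2:**
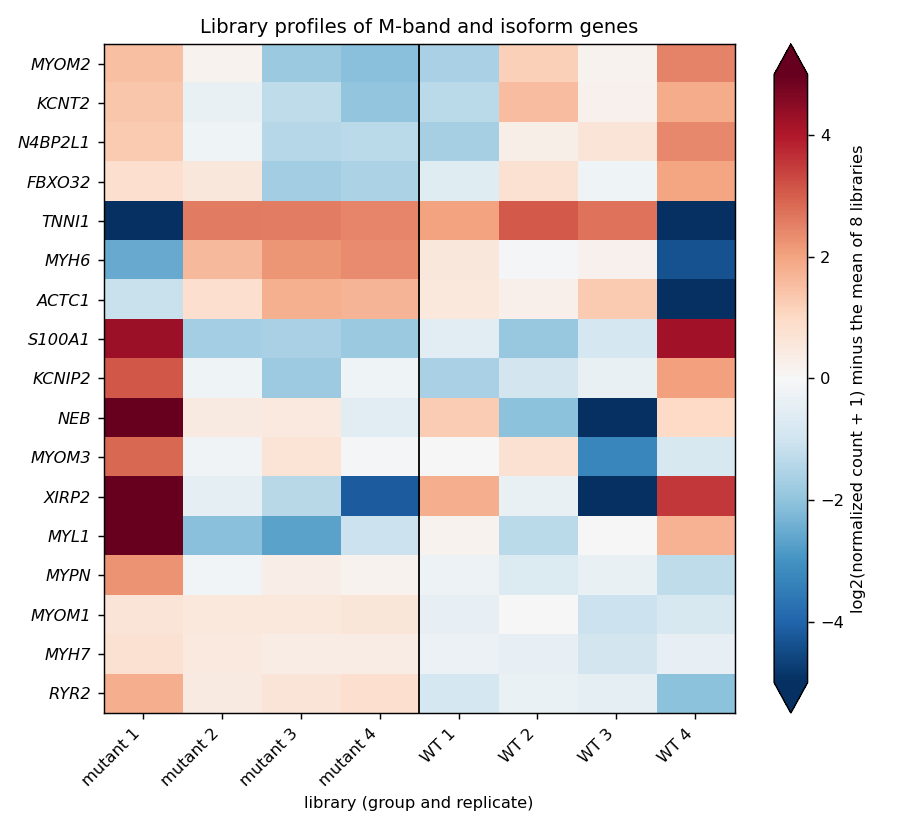
Log2(normalized count + 1) of 17 genes in each library (mutant left of the line, WT right), minus each gene's mean over the 8 libraries; the colour scale ends at -5 and 5. MYOM2 and its closest genes are highest in WT replicate 4 and also high in mutant replicate 1, TNNI1 is lowest in mutant replicate 1 and WT replicate 4, and MYOM1, MYH7 and RYR2 are higher in all mutant libraries.

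MYBPC3 had similar levels in both groups. Its normalized counts were 45545, 35710, 33036 and 34702 in mutant replicates 1 to 4, against 30697, 36055, 37749 and 20863 in WT replicates 1 to 4. The means were 37248 ± 5640 in mutant ventricles and 31341 ± 7605 in WT ventricles (SD, n = 4 each), and the groups overlapped. The log2 difference was 0.27 ± 0.29 (SE), with a 95% interval of -0.38 to 0.93 (limma adjusted p = 0.666; exact permutation p = 0.343). Without WT replicate 4 it was 0.09. The closest profiles were those of AP2B1, a clathrin adaptor gene, CAPRIN1, an RNA-binding protein gene, and ZBED1, at distances of 0.11, 0.12 and 0.12.

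Read against MYH7, the β-myosin heavy chain that forms most of the thick filament in large mammals, MYBPC3 was lower in mutant ventricles. The MYBPC3/MYH7 ratio was 0.149, 0.141, 0.141 and 0.148 in mutant replicates 1 to 4, against 0.210, 0.264, 0.396 and 0.156 in WT replicates 1 to 4. All mutant ratios lay below all WT ratios, and the gap to WT replicate 4 was small. The log2 ratio averaged -2.79 ± 0.04 in mutant libraries and -2.05 ± 0.57 in WT libraries (SD, n = 4 each), a difference of -0.74. The exact two-sided permutation p was 0.0286, the smallest possible, and 0.143 after Benjamini-Hochberg adjustment over 5 ratios, so the difference did not pass. MYH6 and MYH7 are near-identical genes whose reads may have been split between them. With the sum of MYH6 and MYH7 below the line, an alternative added after the values were seen, the ratio was 0.146, 0.0948, 0.0786 and 0.0784 in mutant replicates 1 to 4, against 0.149, 0.207, 0.265 and 0.154 in WT replicates 1 to 4.

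MYOM1 and MYH7 kept nearly the same ratio in both groups. MYH7 had 256660 ± 34038 normalized counts in mutant ventricles and 127942 ± 22310 in WT ventricles (SD, n = 4 each), and the MYOM1/MYH7 ratio was 0.0353 to 0.0444 in mutant libraries and 0.0297 to 0.05002 in WT libraries. The log2 difference of this ratio was 0.13 (exact permutation p = 0.486), and -0.063 without WT replicates 3 and 4. The MYOM2/MYH7 ratio ran over 0.00444 to 0.0406 in mutant libraries and 0.00991 to 0.183 in WT libraries, a log2 difference of -2.14 (exact permutation p = 0.143). In each of the 4 mutant libraries MYOM1 was also higher relative to MYBPC3, with ratios of 0.237 to 0.300 against 0.0869 to 0.191 in WT libraries, a comparison added after the values were seen and given without a test.

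**Figure D3:**
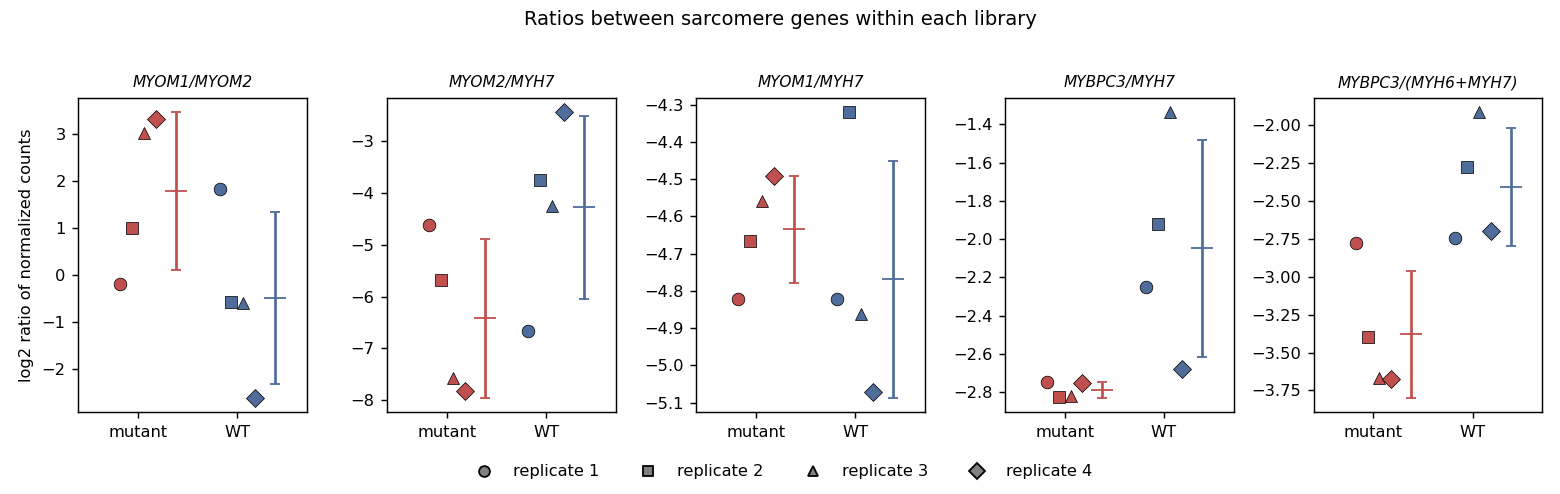
Log2 ratios of normalized counts within each library, mutant left of WT, with symbols for replicates and the mean ± SD beside them; axes differ between panels. MYBPC3 over MYH7 lies between -2.83 and -2.75 in mutant libraries, below every WT library, while MYOM1 over MYOM2 and MYOM1 over MYH7 overlap.

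NEB was detected in 7 of the 8 libraries, with 137 normalized counts or fewer in all of them but mutant replicate 1. Its normalized counts were 2126, 79.0, 80.8 and 39.7 in mutant replicates 1 to 4, against 137, 12.96, 0 and 115 in WT replicates 1 to 4. Mutant replicate 1 stood far above all other libraries, and the other 3 mutant libraries lay inside the WT range. WT replicate 3 had 0 reads, which allows up to 14.5 normalized counts (3 reads). The log2 difference was 2.83 ± 1.71 (SE), with a 95% interval of -1.002 to 6.65 (limma adjusted p = 0.464; exact permutation p = 0.286). It was 1.56 without mutant replicate 1 and 1.34 without WT replicate 3. The authors' deposited table lists a log2 fold change of 3.12 for NEB with no p-value. DESeq2 on the recovered reads without mutant replicate 1 gave -0.020.

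MYOM3, XIRP2 and MYL1, picked after their values were seen, were also highest in mutant replicate 1, while TNNI1, MYH6 and ACTC1 were lowest there among the mutant libraries. MYOM3, the third myomesin gene, had 5467 normalized counts in that library, 668 to 1193 in the other mutant libraries and 77.5 to 1261 in WT libraries. XIRP2, an actin-binding repeat protein gene, had 3500 there, 1.32 to 29.6 in the other mutant libraries and 0 to 477 in WT libraries. MYL1, a skeletal and fetal myosin light chain gene, had 803 there, 2.15 to 8.61 in the other mutant libraries and 6.91 to 66.7 in WT libraries. Of the skeletal muscle markers, 12 were in the table, and their summed level was 73313 to 157649 in mutant libraries and 22215 to 179710 in WT libraries. ACTA1, which the heart also expresses, had the highest mean of them over all libraries (87504 normalized counts). TNNI1 is on this list too and made up 14821 of the 22215 in WT replicate 2. The fast fibre genes MYH1, ATP2A1 and ACTN3 each had 0 reads in mutant replicate 1, and TNNI2 had 2 reads. Others of the list went the other way in that library. MYL1 had 1314 reads there and 3 to 13 in the other mutant libraries. MYBPC2, a fast skeletal muscle gene, had 111 reads there and 7 to 13 in the other mutant libraries, but it was highest in WT replicate 4, at 561 reads. Over all libraries MYH1 had reads only in mutant replicate 4, where it had 2. The genes closest to NEB in profile were DYNC1I1, a dynein chain gene, EHHADH, a peroxisomal fatty acid oxidation gene, and ASB5, at distances of 0.96, 1.06 and 1.11. Like NEB, all 3 were highest in mutant replicate 1 and had 0 reads in WT replicate 3.

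The nebulin relative NEBL was abundant in all libraries and did not differ beyond its spread. It had 23135 ± 8042 normalized counts in mutant ventricles and 21275 ± 8513 in WT ventricles (SD, n = 4 each; log2 difference 0.13 ± 0.36, SE; limma adjusted p = 0.882). The NEB/NEBL ratio was 0.0675 in mutant replicate 1, 0.00230 to 0.00547 in the other mutant libraries and at most 0.00762 in WT libraries, with a log2 difference of 2.70 (exact permutation p = 0.286).

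RBM20 was measured well in every library and varied more in WT than in mutant ventricles, as kept genes did at the median. The SD of its log2 values was 0.36 among mutant and 1.14 among WT libraries, against medians of 0.33 and 0.70 over kept genes. Its normalized counts were 1155, 1826, 2009 and 1786 in mutant replicates 1 to 4, against 1460, 916, 2907 and 444 in WT replicates 1 to 4. The highest and the lowest value were WT replicates 3 and 4, and all mutant values lay between them. The means were 1694 ± 372 in mutant ventricles and 1432 ± 1067 in WT ventricles (SD, n = 4 each). The log2 difference was 0.53 ± 0.50 (SE), with a 95% interval of -0.60 to 1.66 (limma adjusted p = 0.625; exact permutation p = 0.457). Leaving out WT replicate 4 gave 0.08 in limma and -0.049 in DESeq2, and leaving out WT replicate 3 gave 0.98 in limma. The closest profiles were those of CHRDL1, which encodes a bone morphogenetic protein antagonist, and of the matrix genes VCAN and COL6A2, at distances of 0.20, 0.25 and 0.25. VCAN had 583, 749, 1128 and 1161 normalized counts in mutant replicates 1 to 4, against 943, 543, 1507 and 180 in WT replicates 1 to 4. Like RBM20, VCAN and COL6A2 were highest in WT replicate 3 and lowest in WT replicate 4. The summed level of 8 fibroblast markers was 28505, 38581, 74043 and 71775 normalized counts in mutant replicates 1 to 4, against 50795, 12281, 119481 and 7512 in WT replicates 1 to 4. It had its highest and lowest values in the same WT libraries as RBM20. The cardiomyocyte marker sum was also highest among WT libraries in WT replicate 3 and lowest in WT replicate 4, as was KCNH2. For the sum, that order rests largely on ACTC1, which had 100534, 83137, 168682 and 1752 normalized counts in WT replicates 1 to 4. The marker MYH7 was instead lowest among WT libraries in WT replicate 3, at 95432. The part of either marker sum in the RBM20 values was not tested.

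**Figure D4:**
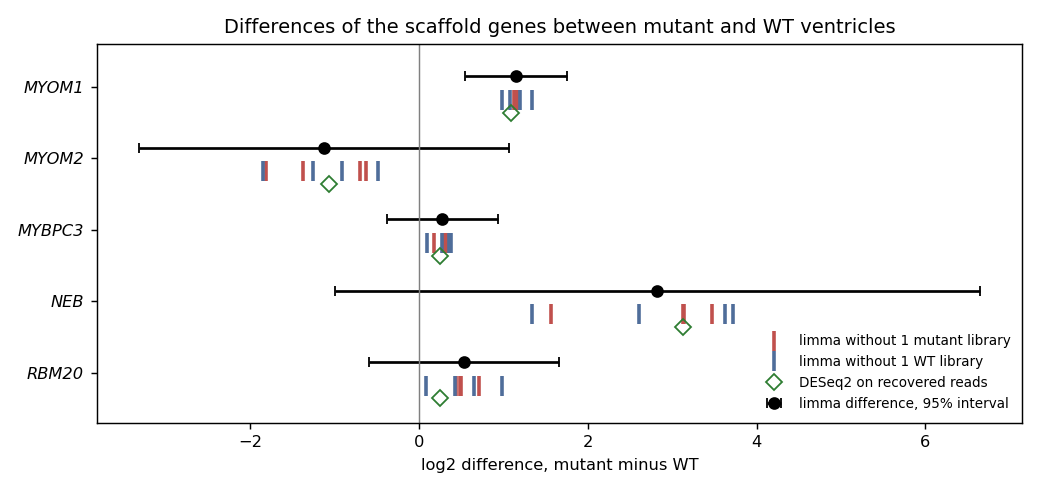
Log2 difference, mutant minus WT, of the 5 scaffold genes from limma with its 95% interval (black), without each library in turn (red ticks for a mutant and blue ticks for a WT library left out) and from DESeq2 (diamonds). The interval of MYOM1, 0.54 to 1.76, lies above 0, and the intervals of the other 4 genes include 0.

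Genes that work beside the scaffold were read from lists by function, and none of their members passed limma. Over all kept genes the median log2 difference was 0.12, and 56.9% had a positive one. Of 12 kept M-band genes 10 were higher and 2 lower in mutant ventricles, with a median of 0.40. TRIM55, a ubiquitin ligase gene of the M-band, had 2378, 2358, 2469 and 2791 normalized counts in mutant replicates 1 to 4, against 2049, 1652, 2170.4 and 217 in WT replicates 1 to 4. It was the 1 M-band gene on the list without overlap between groups, and WT replicate 4 was far below all other libraries. Of all kept genes, 6.17% had every mutant value above every WT value, as TRIM55 did, and 5.22% had every one below. Its log2 difference was 1.15 ± 0.65 (SE; limma adjusted p = 0.440). The differences of ANK1, MYOM3 and the autophagy receptor gene SQSTM1 were 1.12 ± 0.44, 1.64 ± 0.90 and -0.85 ± 0.39 (SE), with overlapping groups. The authors' deposited table calls none of these 12 M-band genes.

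Thick filament genes had a median of 0.66 over 12 kept members, of which 10 were higher and 2 lower. MYH7, the myosin phosphatase subunit gene PPP1R12B and the cardiac myosin light chain kinase gene MYLK3 had no overlap between groups, with log2 differences of 1.01 ± 0.33, 0.94 ± 0.27 and 0.79 ± 0.28 (SE; limma adjusted p = 0.262, 0.228 and 0.290). The myosin-folding methyltransferase gene SMYD1 differed by 2.73 ± 0.97 (SE), with 1389.6 normalized counts in mutant replicate 2 below the 1514 of WT replicate 2. The authors' deposited table calls MYH7 and PPP1R12B higher, against 1.32% of all its genes. These 3 of 12 had every mutant value above every WT value, against 6.17% of all kept genes, and a further 5.22% of kept genes had every mutant value below. The median was 0.39 without WT replicate 4.

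Titin partners had a median of 0.37 (0.21 without WT replicate 4), with 10 of 13 higher and 3 lower. MYPN, which encodes the Z-disc protein myopalladin, had 2040, 390, 539 and 488 normalized counts in mutant replicates 1 to 4, against 368, 266, 339 and 180 in WT replicates 1 to 4. It was the 1 member of 13 without overlap, with a log2 difference of 1.28 ± 0.50 (SE; limma adjusted p = 0.314). Of all kept genes, 6.17% had every mutant value above every WT value, as MYPN did, and 5.22% had every one below. The titin cap gene TCAP differed by -0.75 ± 0.37 and the α-actinin gene ACTN2 by 0.43 ± 0.28 (SE). ANKRD2, of the stretch-responsive ankyrin repeat family, differed by 1.79 ± 0.92 (SE) and had 94.1 normalized counts or fewer in each library. The nebulin family and thin filament length genes had a median of 0.13 over 11 kept members, 7 higher and 4 lower, near that of all genes (-0.05 without mutant replicate 1), and no member without overlap. The capping gene TMOD1, XIRP1, NRAP and the leiomodin gene LMOD2 differed by 0.69 ± 0.41, -0.52 ± 0.39, 0.65 ± 0.51 and -0.53 ± 0.52 (SE).

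Transcripts known as splicing targets of RBM20 had a median of 0.20 over 16 kept members (0.04 without mutant replicate 1), 12 higher and 4 lower. The ryanodine receptor gene RYR2 and LMO7 were the 2 of 16 with no overlap between groups. They are also the 2 that the authors' deposited table calls, each higher, of 15 with an adjusted p there. Over all kept genes 6.17% had every mutant value above every WT value, as these 2 did, and 5.22% had every one below. The authors' deposited table calls 1.32% of its genes higher. RYR2 differed by 1.88 ± 0.44 (SE; limma adjusted p = 0.202) and LMO7 by 1.34 ± 0.32 (SE; limma adjusted p = 0.207). The calcium channel gene CACNA1C differed by 0.83 ± 0.29 and TRDN, which encodes the sarcoplasmic reticulum protein triadin, by -1.11 ± 0.61 (SE), with overlap. Other muscle splicing regulators had a median of 0.09 over 16 kept members (-0.08 without WT replicate 4), 10 higher and 6 lower. PTBP2, a splicing repressor gene, had 230.3, 370, 351 and 375 normalized counts in mutant replicates 1 to 4, against 409, 599, 789.7 and 576 in WT replicates 1 to 4. It was the 1 regulator with all mutant values below all WT values, which 5.22% of kept genes showed (log2 difference -0.83 ± 0.27, SE; limma adjusted p = 0.271). PTBP1, its paralog, differed by -0.55 ± 0.23, CELF1 by 0.55 ± 0.23 and QKI by 0.44 ± 0.23 (SE), and QKI was the 1 with all mutant values above all WT values.

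Genes outside the sarcomere whose products are very large were set beside the giant muscle genes. Of 24 kept members 20 were higher and 4 lower in mutant ventricles, with a median log2 difference of 0.78, and 11 had all mutant values above all WT values, against 6.17% of all kept genes. VPS13D, a lipid transfer protein gene, had 843 ± 94.1 normalized counts in mutant ventricles and 412 ± 100.4 in WT ventricles (SD, n = 4 each; log2 difference 1.05 ± 0.23, SE; limma adjusted p = 0.193). The differences were 1.10 ± 0.26 for the histone methyltransferase gene KMT2C, 1.18 ± 0.33 for the cytolinker gene DST and 1.26 ± 0.36 for the dystrophin gene DMD (SE). Without WT replicates 3 and 4 the median was 0.80, and 19 of the 24 lay higher in all mutant libraries than in WT replicates 1 and 2, which 15.2% of all kept genes did. None passed limma, and the authors' deposited table calls 3 of 23 higher, against 1.32% of all its genes. The part of transcript length in the difference of MYOM1 was not tested.

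**Figure D5:**
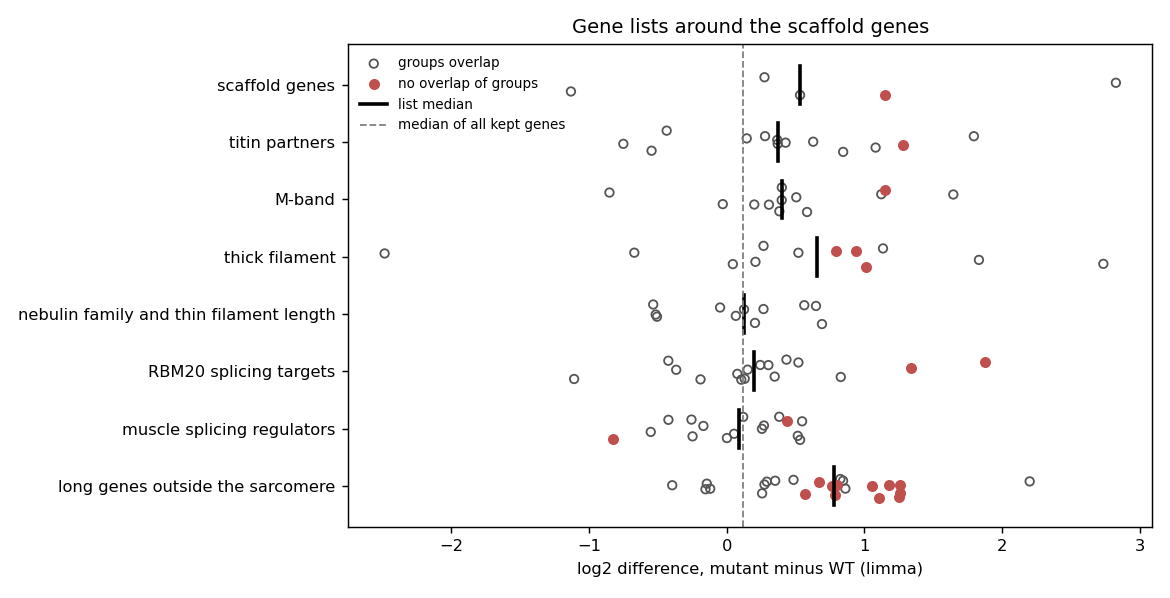
Log2 difference, mutant minus WT, of each kept gene (points, spread up and down within a row for sight) in the scaffold gene list and 7 lists around it, with list medians (bars) and the median of all kept genes (dashed line, 0.12). Filled points are genes whose groups do not overlap; 11 of them are among the 24 long genes outside the sarcomere.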

How the data were processed

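TRIzol extracts of left ventricular tissue were enriched for polyadenylated RNA, and random-primed libraries were made with an NEBNext Ultra kit, per the labels' protocols. Strand-specific counting is not stated. The deposited table has 8 columns of signal by gene symbol, which per the file headers and values is a read count divided by a size factor. DESeq2 is named in the submitters' processing notes with no version, and the build named there, GRCh38, is human, so no coordinates are printed. The sources used here do not name the aligner, counter or annotation. Further deposited columns hold the authors' p-value and adjusted p-value, Wald score, log2 fold change, standard error and mean signal.

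Of 14720 rows, 2 named for an annotation source (0.392% to 0.853% of reads) were left out. All values (100%, with a tolerance of 1e-06 of the count) were whole multiples of the smallest value in their column, so whole reads were recovered. At the highest counts, such as 500606 reads of MYH7 in mutant replicate 1, this tolerance cannot tell whole from fractional reads. Of 14718 genes, 14504 matched a pig symbol. A count of 0 was taken to allow up to 3 reads, which like all depth limits covers counting error only.

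The filter asked for normalized counts of 10 or more in 4 or more libraries and kept 11660 genes, including all 5 members. Log2(normalized count + 1) was fitted with limma 3.58.1 (trended, robust prior, R 4.3.3), a scale on which the change of a low gene depends on the pseudocount, and genes were called at a p-value under 0.05 after Benjamini-Hochberg adjustment. The fit was tested on simulated counts with the same dispersion for all genes and both groups. How it performs at the uneven spread of these groups was not tested. Exact permutation tests used scipy 1.17.1, and 5 ratios were tested, while 3 further ratios planned with TTN were not computed. Recovered reads were refitted with edgeR 4.0.16 (quasi-likelihood test) and DESeq2 1.42.0 as alternatives, beside other scalings, filters, pseudocounts, priors and weights, and leaving out libraries.

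A listed gene is not reported here. The members and lists were chosen with earlier results of these data known. Named genes are the members, the 4 genes of each list with the smallest p, the 3 closest profiles per member, MYH7 and NEBL. Others are named after their values were seen. Where nothing says that libraries came from separate tissue collections, p-values measure the spread between these libraries alone. The labels give no batch.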

Additional observations from a re-analysis of the deposited data

Results flagged for a closer look

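In 10 of 108 groups of 4 libraries tested, over 49 named genes and 5 ratios, the highest or lowest log2 value lay far from the other 3 libraries by Dixon's criterion. Chance gives this in about 1 of 20 groups. None of the 5 scaffold genes or 5 ratios was among them, although the gap of NEB in mutant replicate 1 came to 0.824. Mutant replicate 1 was apart in 4 genes, high for LMO7 (8152 normalized counts), QKI (7657) and EHHADH (789.9) and low for PTBP2 (230.3). Mutant replicate 2 was low for SMYD1 (1389.6). WT replicate 4 was low for TRIM55 (217), TMOD1 (482) and AP2B1 (1036), WT replicate 1 was low for PTBP1 (1712), and WT replicate 3 was listed at 0 for ASB5.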

How the results depend on the processing

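Over the whole table limma called 0 genes, edgeR 0 (1730 at an unadjusted p under 0.05) and DESeq2 582, while array quality weights gave 92, quantile rescaling 3 and leaving out WT replicates 3 and 4 gave 12. Leaving out 1 library gave 0 to 1027 calls over limma and DESeq2. DESeq2 called 1 of 5 members, MYOM1 (1.09), and 0 to 1 with a library left out. The MYOM1 difference was 0.95 to 1.33 without 1 library and 0.79 to 1.27 under the other alternatives (adjusted p = 0.00762 to 0.271). Across leave-one-out fits MYOM2 ran from -2.10 to -0.17, MYBPC3 from 0.09 to 0.38, NEB from -0.020 to 3.75 (reversed in DESeq2 without mutant replicate 1) and RBM20 from -0.049 to 0.98 (reversed in DESeq2 without WT replicate 4). Under the other alternatives MYOM2 ran from -1.91 (array quality weights) to -0.37 (without WT replicates 3 and 4), MYBPC3 from 0.10 (weights) to 0.50 (quantile rescaling), NEB from 0.92 (weights) to 3.12 (DESeq2) and RBM20 from 0.25 (DESeq2) to 0.80 (weights). The log2 MYOM1/MYH7 difference was -0.063 without WT replicates 3 and 4, and 0.03 to 0.28 without 1 library. The cause was not tested. The DESeq2 fits with a library left out were added after seeing the data. NEB falls below a minimum of 100. Filters and scaling by 1 factor per library cannot change a ratio, the pseudocount aside. Quantile rescaling can, and the ratios were not recomputed under it. TMM rescaling moved the median of all kept genes to 0.16 and scaling per nuclear read to 0.21, from 0.12 in limma, and DESeq2 had -0.03. No paired analysis was possible because the labels number the pigs separately. In WT replicate 3, few nuclear reads limit low genes such as NEB.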

Other observations

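The other myosin-binding protein C genes were low in all libraries but 1. MYBPC2, the form of fast skeletal muscle, had 67.8, 9.87, 5.01 and 7.28 normalized counts in mutant replicates 1 to 4, against 15.9, 48.4, 63.0 and 681 in WT replicates 1 to 4, so the high value was that of WT replicate 4 (561 reads). MYBPC1, the slow skeletal form, had 8 reads in mutant replicate 1, 2 in WT replicate 1 and 0 in every other library. MYBPHL had at most 3 reads in any library.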
